A study of Mus musculus with 4 samples.

Results

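Proximal tubule S1 cells were selected from the renal cortex of male mice by the counts of 6 segment genes, giving 3861 cells among 32407 that passed quality filters and 48085 barcodes in all. A barcode was kept when it held at least 1000 genes and at most 50% of its unique molecular identifiers (UMIs) in mitochondrial genes. Per 10000 UMIs of the barcode (CP10k), it also needed at least 5 of *Slc34a1*, at least 4 of *Slc5a2*, under 5 of *Slc7a13* and *Slc22a30* together and under 20 of *Slc12a1* and *Umod* together. *Slc34a1* marks the proximal tubule, *Slc5a2* its beginning, *Slc7a13* and *Slc22a30* its end, and *Slc12a1* and *Umod* the thick ascending limb.

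The study asked how age, and loss of the transcription factor TFEB with age, act on the kidney. Single-cell libraries of transcript 3′ ends were made for young (6 weeks) Tfebfl/fl, young Tfebfl/fl KAP, aged (24 months) Tfebfl/fl and aged Tfebfl/fl KAP mice, and values below keep this order. Each library came from PBS-perfused cortex that was combined from 2 or 3 mice before digestion, so that 1 library stands for each condition and no test across mice is possible. All 4 groups carried the floxed *Tfeb* allele, and the KAP mice also carried Cre under the androgen-regulated *Kap* promoter, whose deletion the study located in the S3 segment. By immunofluorescence, shown in young mice, the study found the loss of TFEB specific to that segment. The labels themselves do not say whether S1 cells of the KAP mice had lost *Tfeb*.

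The S1 segment is the first stretch of the nephron after the glomerulus. It takes back most of the filtered glucose, phosphate, amino acids and bicarbonate through apical sodium-coupled carriers, retrieves filtered proteins by receptor-mediated endocytosis and burns fatty acids in its mitochondria. TFEB drives genes of lysosomes and autophagy.

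The carrier gene of the selection, *Slc34a1*, encodes the main apical sodium-phosphate cotransporter, and its promoter is shown because it was the only one among the S1 marker genes with an entry that held the letters searched. The stretch from chr13:55399529-55399622 (GRCm38.p6, plus strand, sequence from RefSeq) lies just before its transcription start, with 2 matches to the half-site GTTAAT of the hepatocyte nuclear factor HNF1 in capitals, the first of them on the reverse strand.
Slc34a1: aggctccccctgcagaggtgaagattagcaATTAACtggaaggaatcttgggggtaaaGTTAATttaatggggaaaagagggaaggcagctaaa
The matches begin at -89 and -61 from the start. In windows from 250 bases before to 50 after the start, these letters occurred on either strand in 7.20% of 27025 promoters, in 4.57% of the 5912 promoters of genes measured in S1 cells, and in 1 of the 11 S1 marker genes that had an entry, which is *Slc34a1* itself. A match is a description and not a bound site.

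The young libraries gave 1450 and 1415 S1 cells and the aged libraries 482 and 514. They made up 13.2% (exact binomial 95% interval 12.5 to 13.8), 16.7% (15.9 to 17.5), 8.05% (7.37 to 8.76) and 7.42% (6.81 to 8.06) of the filtered cells. Both shares of aged mice lay below both of young mice, and the intervals cover counting error only. The S1 cells held 24553098, 27410489, 8356389 and 9148966 UMIs in sum, with medians of 15603.5, 17759, 12716.5 and 12461.5 per cell. The median mitochondrial share was 26.4, 24.9, 20.2 and 19.6%. Depth and mitochondrial share thus both moved with age, and their part in the results was not tested. Only 1 barcode was shared, between the S1 cells of the young libraries.

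The shares rest on the limit for *Slc5a2*, the sodium-glucose cotransporter used to select, and on the cells that met every other criterion. These cells numbered 2921, 2593, 1550 and 1194 of 11016, 8469, 5991 and 6931 filtered cells, and their part in the shares was not tested. Among cells that met every other criterion, 49.6, 54.6, 31.1 and 43.0% reached the limit of 4 CP10k, and their median *Slc5a2* was 3.89, 5.01, 1.10 and 3.30 CP10k. The limit ran through a continuous distribution. Just below it, between 3 and 4 CP10k, lay 156, 152, 94 and 110 cells, and just above it, between 4 and 5 CP10k, lay 151, 118, 87 and 88. Among the members the median was 8.75, 10.1, 7.21 and 7.65 CP10k for *Slc5a2* and 41.9, 46.8, 43.1 and 43.7 CP10k for *Slc34a1*.

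Markers that the selection did not use were abundant in these cells. *Spp2*, which encodes a secreted phosphoprotein, stood at 2287, 2162, 1583 and 1340 CPM in S1 cells, where CPM is the gene's share of the summed UMIs scaled to the same total in every library. In cells that met the same limits but had under 4 CP10k of *Slc5a2*, called the S2 range here, it stood at 298, 245, 188 and 244 CPM. *Gatm*, the first enzyme of creatine synthesis, had 4442, 3865, 3285 and 2579 CPM in S1 cells. All 4 libraries thus held both genes at high levels, with the aged libraries below the young. *Slc5a12*, a sodium-lactate cotransporter, ran the other way with age, at 418, 343, 535 and 657 CPM. After thinning each cell to 5000 UMIs, *Gatm* was seen in 99.9, 99.7, 100 and 99.4% of S1 cells and in 5.31, 0.347, 0.583 and 0.0923% of cells in the range of the thick limb, which should lack it. Without thinning *Gatm* was seen in 99.9, 99.7, 99.6 and 99.0% of S1 cells. All 3 genes were seen together in 91.1, 87.6, 94.0 and 92.6% of S1 cells, and 0, 2, 0 and 1 cells had none.

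**Figure D1:**
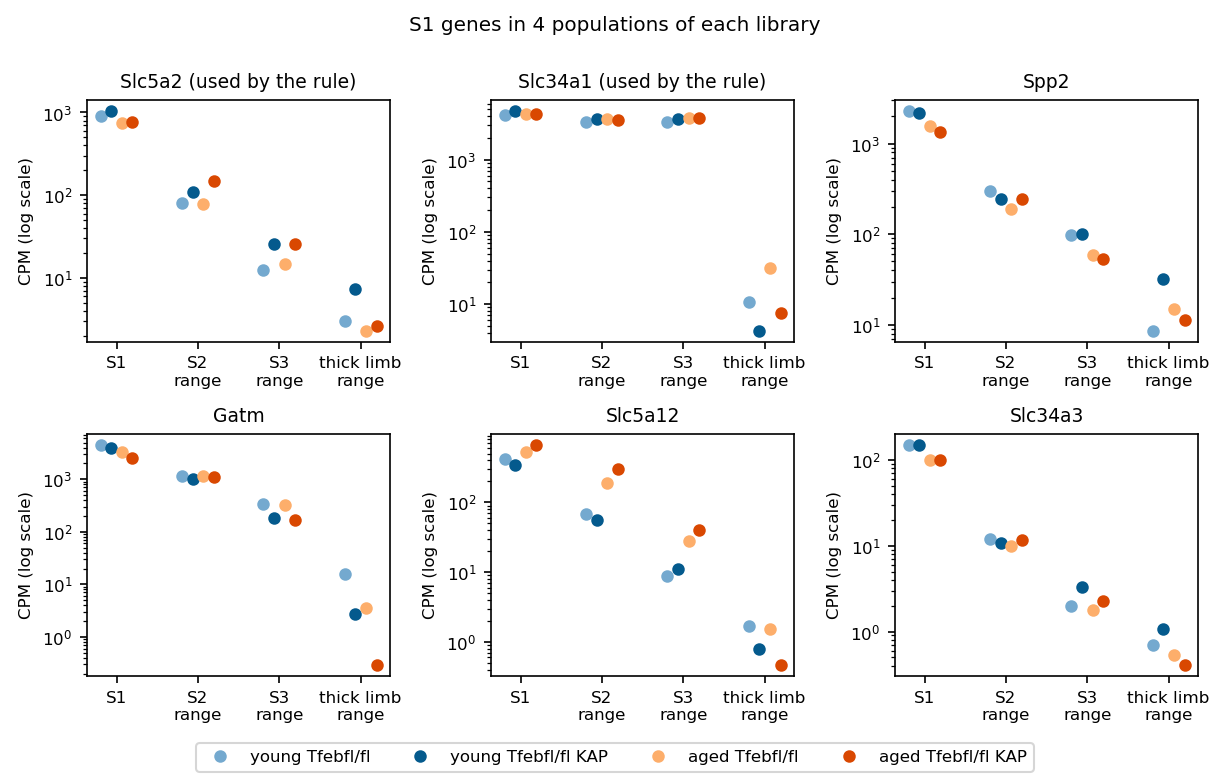
CPM (log axis) of 6 genes in the S1 cells, the S2 and S3 ranges of the proximal tubule and the range of the thick limb, with 1 point per library. Spp2, Gatm, Slc5a12 and Slc34a3, which did not enter the selection, were highest in S1 cells in all 4 libraries, while Slc34a1, a gene of the selection, was nearly level over the 3 proximal ranges and low in the thick limb.

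The genes that set S1 cells apart from the S2 range were described among those abundant in S1 cells. Of 1082 genes with at least 100 CPM in S1 cells of every library, 23 were at least 2-fold higher in S1 cells than in the S2 range of all 4 libraries, and 3 were at least 2-fold lower. Against the S3 range, the cells with at least 5 CP10k of *Slc7a13* and *Slc22a30*, these were 61 and 21 genes. The limit of 100 CPM in S1 cells kept out genes that are abundant in later segments only, and over all 7339 genes 218 were at least 2-fold higher and 139 at least 2-fold lower than in the S2 range by their median ratio. Because the selection also used *Slc5a2* and the S3 genes, these counts describe the selection and were not tested. Among the 1082 genes, *Slc34a3*, a second phosphate carrier, had the largest median log2 ratio to the S2 range, 3.48. *Slc34a3* had 148, 149, 100 and 100 CPM in S1 cells and 11.9, 10.9, 10.0 and 11.54 in the S2 range. After it came *D630023F18Rik* with 3.33, *Slc5a2* of the selection with 3.26, *Car3*, a carbonic anhydrase, with 3.04, *Spp2* with 3.01 and *Snhg11* with 2.92. The next were *Apoe*, the lipid carrier, with 2.78, *Acss1*, a mitochondrial acetyl-CoA synthetase, with 2.39, *Slc7a8*, the basolateral exchanger of neutral amino acids, with 2.13, *Slc5a12* with 2.05, *Clec2h*, a C-type lectin gene, with 2.03 and *Gldc* of the glycine cleavage system with 1.96. Among these, *Slc7a8* was lower in both aged libraries, at 526, 423, 299 and 251 CPM, while *Clec2h* was higher there, at 181, 167, 410 and 297 CPM.

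Within the S1 cells, some carriers followed *Slc5a2* and others ran against it. Cells were parted at 8 and 16 CP10k of *Slc5a2* into 3 bins. Of 115 genes of the carrier and other lists examined, 11 were higher in each next bin of all 4 libraries, *Slc5a2* itself among them, 6 were lower, and 98 had neither order. *Slc2a2*, the basolateral glucose carrier that works in series with *Slc5a2*, had 249, 317 and 328 CPM from the lowest to the highest bin in young Tfebfl/fl mice. The corresponding values were 208, 255 and 287 in young Tfebfl/fl KAP, 252, 344 and 556 in aged Tfebfl/fl and 232, 330 and 481 in aged Tfebfl/fl KAP mice. *Slc2a2* was therefore higher in each next bin of all 4 libraries, although the top bin of aged Tfebfl/fl mice held only 20 cells. *Slc34a1*, also a gene of the selection, *Slc7a8*, *Slc6a19*, the apical carrier of neutral amino acids, and *Amn*, a partner of the protein receptor cubilin, followed the same order in every library. *Slc22a6*, the basolateral carrier of organic anions, had the opposite order, from 154 to 65.0 and 36.5 CPM in young Tfebfl/fl and from 395 to 115 and 64.9 in young Tfebfl/fl KAP mice. In aged Tfebfl/fl mice *Slc22a6* went from 171 to 92.7 and 52.6 CPM, and in aged Tfebfl/fl KAP mice from 288 to 129 and 107. *Slc22a2*, *Slc22a12*, *Slc13a3*, *Slc17a3* and *Car4* shared that order. The bins are cut from a gene of the selection, and these gradients are a description of it.

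*Tfeb* itself was sparse, at 8.88, 8.87, 10.2 and 6.78 CPM of S1 cells, and was seen after thinning in 4.32, 4.84, 7.19 and 4.31% of them against 8.95, 9.02, 8.86 and 9.04% of thick limb cells. The share in S1 cells was thus at or below that in the thick limb, and without thinning it was 13.5, 14.98, 15.1 and 10.9%. Tags of the 3′ end may lie outside the deleted exons, and whether the counts of *Tfeb* follow the genotype was not tested. In the S3 range, where the study located the deletion, *Tfeb* was seen after thinning in 3.098, 2.09, 2.78 and 1.04% of cells. Without thinning these shares were 13.02, 8.65, 13.1 and 5.56%. Each KAP library thus lay below the Tfebfl/fl library of its age there, while in S1 cells only the aged KAP library did. *Tfe3*, a relative of *Tfeb*, stood at 10.5, 12.3, 14.4 and 9.73 CPM in S1 cells. The list of the MiT/TFE family and its regulators, which includes *Tfe3* and the folliculin gene *Flcn*, had 7 measured genes. All 7 were lower in aged Tfebfl/fl KAP than in aged Tfebfl/fl cells, as were 4267 of all 7339 genes. Past 1.5-fold lower was 1 of them (2.06% of all genes compared), and their median ratio was -0.27 on the log2 scale beside -0.042 for all genes. With no limit on *Slc5a2* in the selection this median was -0.057, beside 0.025 for all genes. In young mice 3 were higher and 4 lower, with a median of -0.0056 that turned positive when centred. In aged against young cells 6 and 4 of the 7 were higher, with medians of 0.44 and 0.14 beside 0.12 and 0.11 for all genes. In the S2 range the same genes had a median of 0.0036 between genotypes of aged mice, with 4 of the 7 higher. The median of all genes there was 0.040.

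Age went with far more genes past a 1.5-fold difference than genotype did. Comparisons used the 7339 genes with a mean of at least 10 CPM over the 4 libraries, and a log2 ratio of CPM with an exact 95% interval of its 2 counts, which again covers counting error only. In Tfebfl/fl mice 783 genes (10.7%) were at least 1.5-fold higher and 214 (2.92%) at least 1.5-fold lower in aged S1 cells. In Tfebfl/fl KAP mice 780 genes (10.6%) were higher and 196 (2.67%) lower. The 2 age comparisons share no library, and 431 genes (5.87%) were past 1.5-fold higher in both, which is 55.0 and 55.3% of each set, and 99 (1.35%) lower in both, which is 46.3 and 50.5%. The median gene was higher in aged cells by 0.12 and 0.11 on the log2 scale. With each comparison centred on that median, the share of higher genes among those past 1.5-fold went from 78.5 to 53.8% in Tfebfl/fl and from 79.9 to 60.8% in Tfebfl/fl KAP mice, and with mitochondrial UMIs left out of the total it was 65.4 and 74.6%. The excess of higher genes thus depended on the scale. Over all genes 63.5 and 63.4% were higher in aged cells, and the lists below are to be read against these shares and medians.

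By a fixed rule, the 12 genes with the largest and the 12 with the smallest mean ratio over both age comparisons are described, out of 119 higher and 25 lower in both among genes of at least 50 CPM. *Cyp2d12*, a cytochrome P450, led with 21.3, 30.1, 569 and 604 CPM, or log2 ratios of 4.74 (95% interval 4.61 to 4.88) in Tfebfl/fl and 4.33 (4.22 to 4.43) in Tfebfl/fl KAP mice. After thinning it was seen in 6.25, 7.45, 69.4 and 69.6% of S1 cells, and in 0.0405, 0.0578, 6.29 and 4.34% of thick limb cells, and without thinning in 8.34, 13.2, 77.6 and 74.1% of S1 cells. *Cyp2d12* thus passed from a minority to most S1 cells, and the thick limb share also went up. The change was not particular to S1 cells. After thinning *Cyp2d12* was seen in 9.07, 11.0, 79.7 and 68.7% of cells in the S2 range. In the S3 range the shares were 8.33, 9.34, 79.3 and 64.3%.

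The gene of apolipoprotein B, *Apob*, which packs lipid into lipoproteins for export, had 60.0, 87.6, 301 and 307 CPM, with log2 ratios of 2.33 and 1.81. *Pdp2*, a phosphatase that switches pyruvate dehydrogenase on, had 84.7, 94.3, 234 and 266 CPM. *Acnat2*, an acyl-CoA:amino acid transferase, had 27.5, 40.4, 68.9 and 125 CPM, and *Klf15*, a transcription factor of amino acid and fatty acid use, had 32.4, 27.9, 67.1 and 83.3 CPM. For each of these the aged libraries lay above both young libraries without overlap, as they did for 3226 of all measured genes (44%). The other 7 were *Trim7*, *Cyp2e1*, *Cyp4b1*, *Slco1a6*, *Gm42941*, *Cyp2c23* and *Resf1*, with log2 ratios from 1.10 for *Gm42941* to 1.88 for *Trim7* in Tfebfl/fl mice. With no limit on *Slc5a2* in the selection, *Slco1a6* went from 1.57 and 1.39 to 0.43 and 0.55, under 1.5-fold.

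**Figure D2:**
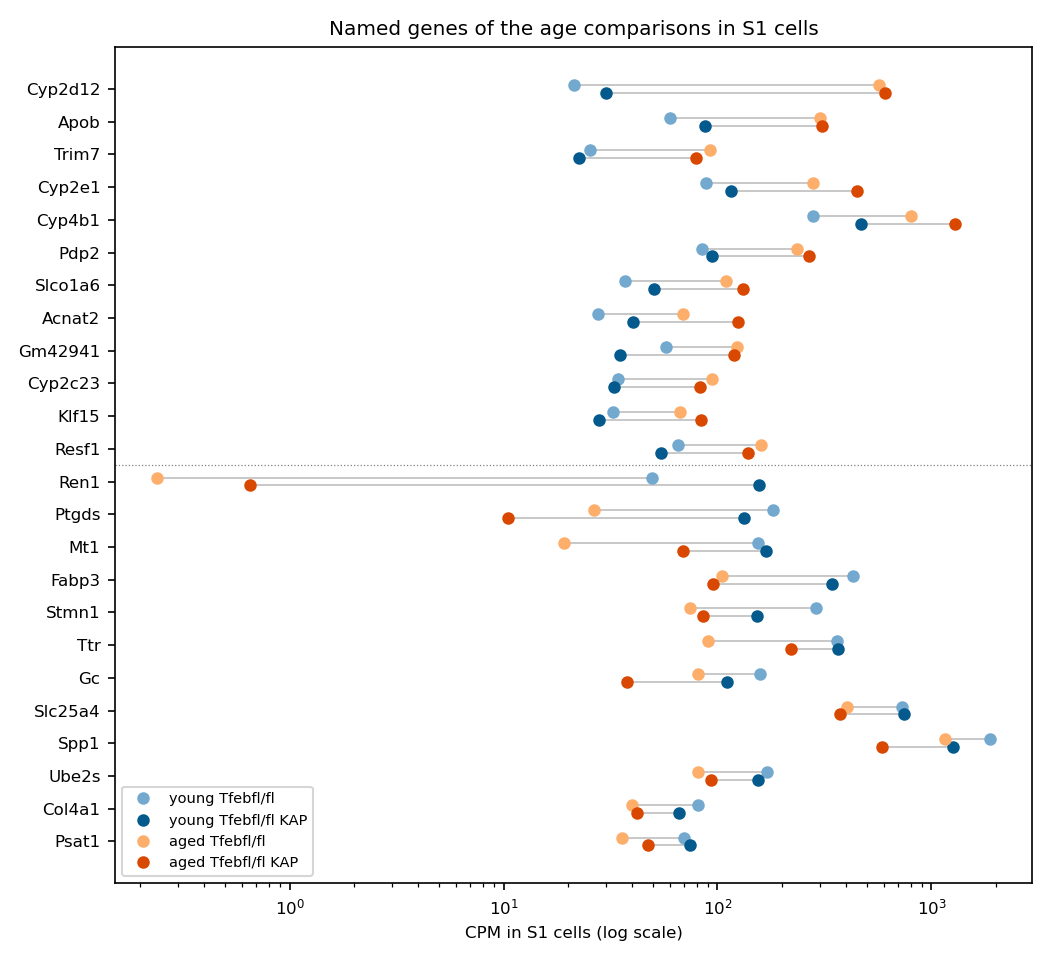
CPM (log axis) in S1 cells of the 12 genes with the largest and, under the dotted line, the 12 with the smallest ratios in both age comparisons, with 1 point per library and lines joining young to aged of the same genotype. Cyp2d12 covers the widest span upwards, and Ren1, which rests on single barcodes, the widest downwards.

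On the lower side, *Fabp3*, a cytosolic carrier of fatty acids, stood at 429, 342, 105 and 95.2 CPM, log2 ratios of -2.03 (-2.13 to -1.93) and -1.85 (-1.95 to -1.75), and its top 1% of cells held 5.58, 6.45, 14.7 and 14.4% of its UMIs. *Slc25a4*, the mitochondrial carrier of ADP and ATP, stood at 727, 741, 402 and 375 CPM. *Spp1*, which encodes osteopontin, stood at 1885, 1266, 1155 and 587 CPM. All 3 were lower in aged cells of both genotypes, as both aged libraries were for 1428 genes (19.5%).

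Several others sat in fewer cells or were less even. *Ptgds*, a prostaglandin D synthase, had 183, 133, 26.4 and 10.5 CPM, and 23.8, 38.9, 45.7 and 84.4% of these UMIs came from the top 1% of cells. *Gc*, the vitamin D binding protein, had 159, 111, 80.8 and 37.8 CPM. *Ttr*, transthyretin, had 361, 364, 90.6 and 221 CPM, and *Mt1*, a metallothionein, 154, 168, 19.3 and 69.3. For *Ttr* and *Mt1* the aged Tfebfl/fl library was the lowest by a wide margin, and with no limit on *Slc5a2* the log2 ratio of *Mt1* with age in Tfebfl/fl KAP mice went from -1.28 to -0.31, under 1.5-fold. *Stmn1*, a microtubule regulator of dividing cells, had 287, 153, 74.6 and 85.5 CPM. Of *Ren1*, the renin gene, 83.1 and 99.9% of the UMIs in young libraries came from a single barcode, so its 49.3, 156, 0.239 and 0.656 CPM describe those barcodes. The last 3, *Ube2s*, *Col4a1* and *Psat1*, were lower in aged cells by log2 ratios of -1.08, -1.04 and -0.97 in Tfebfl/fl and -0.72, -0.64 and -0.66 in Tfebfl/fl KAP mice. In the latter, *Ube2s* at -0.56 and *Col4a1* at -0.44 were under 1.5-fold with no limit on *Slc5a2*.

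The carriers typical of the segment had medians near 0 with age. The sugar and phosphate lists hold *Slc5a2* and *Slc34a1*, on which the cells were selected, so that part of this was set by the selection. Of 7 measured sugar and lactate carriers 5 were higher in aged cells of either genotype, with median log2 ratios of 0.042 and 0.16, of which the first turned negative when centred. Past 1.5-fold was 1 gene in either genotype, lower in Tfebfl/fl and higher in Tfebfl/fl KAP mice. *Slc2a2* stood at 286, 243, 288 and 271 CPM. Of 10 phosphate carriers and regulators 6 were higher in Tfebfl/fl and 4 in Tfebfl/fl KAP mice, with medians of 0.046 and -0.13, of which the first turned negative when centred. *Slc34a3* had log2 ratios of -0.56 and -0.57, and *Slc20a2*, a ubiquitous phosphate carrier, 0.42 and 0.55. Of 12 genes for sodium, acid and water transport 9 and 7 were higher, with medians of 0.079 and 0.045 that both turned negative when centred. Among them *Aqp1*, the water channel, stood at 49.5, 72.1, 107 and 106 CPM, and *Car2*, cytosolic carbonic anhydrase, at 686, 623, 476 and 502. Of 17 genes of endocytosis 8 and 6 were higher, with medians of -0.011 and -0.075, although *Lrp2*, which encodes the protein receptor megalin, stood at 1012, 1027, 1536 and 1280 CPM and its chaperone gene *Lrpap1* at 458, 502, 321 and 351.

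Amino acid carriers went both ways with age. Of 14 measured genes 11 and 9 were higher in aged cells, with medians of 0.18 and 0.10 beside 0.12 and 0.11 for all genes, and the second turned to -0.018 when centred. *Slc6a19* had 351, 279, 648 and 561 CPM, and *Slc6a6*, the taurine carrier, 278, 182, 585 and 414 CPM. Their ratios ran from 0.88 to 1.19 on the log2 scale. The basolateral *Slc7a8* and its heavy chain partner *Slc3a2*, at 384, 389, 260 and 260 CPM, were lower instead, with log2 ratios from -0.81 to -0.56.

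Carriers of organic ions were higher nearly throughout. In Tfebfl/fl mice 18 of 18 measured genes were higher in aged cells and 9 past 1.5-fold, with a median log2 ratio of 0.54. In Tfebfl/fl KAP mice 16 of 18 were higher and 7 past 1.5-fold, with a median of 0.30. Of all genes 10.7 and 10.6% were past 1.5-fold higher, with medians of 0.12 and 0.11. *Slc13a1*, the apical carrier of sulfate, which is an inorganic ion, had 354, 359, 836 and 832 CPM. *Slc22a5*, the carnitine carrier, had 53.4, 54.8, 125 and 107 CPM, and *Slc47a1*, which extrudes organic cations, 173, 185, 287 and 298. For all 3 the aged libraries lay above both young libraries, as they did for 11 of the 18 carriers and for 44% of all genes. In the S2 range the list's medians were 0.22 and -0.02, and with the limit on *Slc5a2* removed from the selection they were 0.24 and 0.11.

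Genes of vitamin D handling also differed with age. *Cyp24a1*, which breaks the hormone down, had 85.9, 58.7, 138 and 220 CPM, and *Cyp27b1*, which makes it, 10.8, 19.8, 25.01 and 29.7 CPM. The receptor gene *Vdr* had 75.9, 76.3, 106 and 109 CPM. With *Gc* these are the 4 measured genes of the list, of which 3 were higher and 1 lower in aged cells of both genotypes, with medians of 0.58 and 0.55 beside 0.12 and 0.11 for all genes.

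Among the transcription factors of the proximal tubule, 7 and 8 of 9 were higher in aged cells, with medians of 0.36 and 0.60 beside 0.12 and 0.11 for all genes. *Hnf4a*, a master regulator of the segment, had 154, 174, 269 and 264 CPM, and *Ppara*, which drives fatty acid oxidation, 36.1, 37.4, 84.7 and 89.6 CPM. *Nr1h4*, the bile acid receptor, had 75.9, 72.6, 99.7 and 123 CPM. *Ppargc1a*, a coactivator of mitochondrial genes, was nearly level at 139, 110, 125 and 112 CPM.

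**Figure D3:**
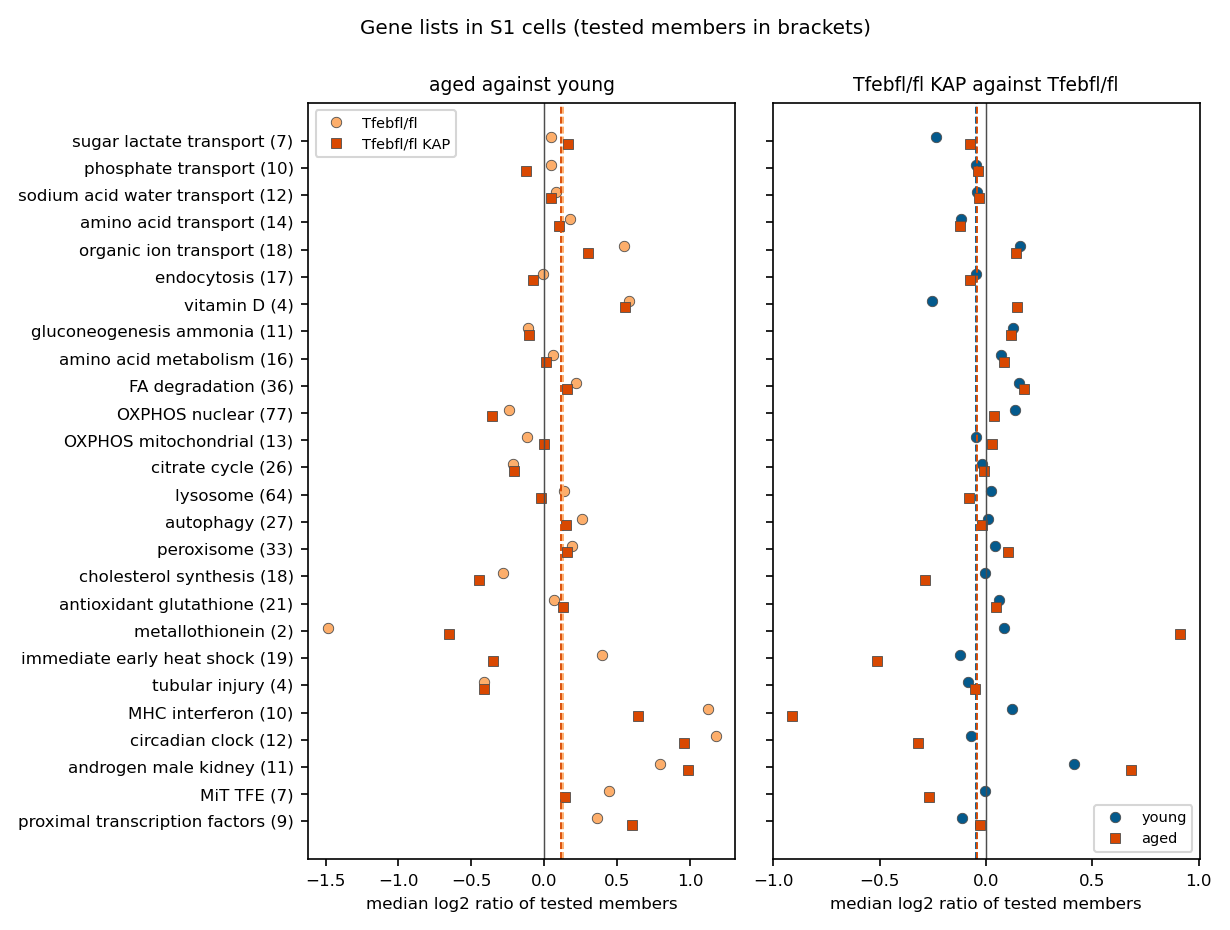
Median log2 ratio of CPM of each gene list in S1 cells, for age in either genotype (left) and genotype at either age (right), with the number of measured genes in brackets. Dashed lines mark the medians of all genes, 0.12 and 0.11 for age and -0.045 and -0.042 for genotype; carriers of organic ions, clock genes and major histocompatibility genes lie to the right of them with age, and nuclear genes of oxidative phosphorylation to the left.

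Energy genes differed with age by pathway. The nuclear genes of oxidative phosphorylation (OXPHOS) were lower in aged S1 cells for 69 of 77 genes in Tfebfl/fl and 75 of 77 in Tfebfl/fl KAP mice, with medians of -0.24 and -0.36 beside 0.12 and 0.11 for all genes. In the S2 range their medians were -0.069 and -0.12, and this difference between the ranges was not tested. *Ndufa4*, of the cytochrome chain, had 3257, 3112, 2131 and 2118 CPM, and *Atp5g1*, of ATP synthase, 1338, 1291, 828 and 815. In 62 of the 77 genes both aged libraries lay below both young, as in 19.5% of all genes. The 13 OXPHOS genes of the mitochondrial genome had medians of -0.12 and -0.0053. Both changed sign in 2 of 10 alternatives, and reached 0.14 and 0.086 in cells of at most 20% mitochondrial UMIs. The citrate cycle had 20 of 26 genes lower in either genotype, with medians of -0.22 and -0.21, while 63.5 and 63.4% of all genes were higher. *Mdh2*, malate dehydrogenase of the cycle, had 566, 546, 385 and 372 CPM.

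Fatty acid degradation had 29 and 27 of 36 genes higher in aged cells, where 63.5 and 63.4% of all genes were, with medians of 0.22 and 0.16. Less the medians of all genes, 0.092 and 0.043 remained. *Cpt1a*, which admits fatty acids to mitochondria, had 54.3, 59.1, 118 and 112 CPM. In the S2 range the medians were 0.055 and -0.11, and the second S1 median turned to -0.032 in cells of at most 20% mitochondrial UMIs. Of 33 peroxisomal genes 22 and 26 were higher, with medians of 0.19 and 0.15, of which 0.063 and 0.040 remained less the medians of all genes. For the S2 range these medians were -0.044 and -0.14, with 14 and 7 of the 33 higher. Among the higher genes in S1 cells were *Pex11a*, which divides peroxisomes, and *Slc27a2*, which activates very long fatty acids, at 494, 474, 849 and 951 CPM.

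Gluconeogenesis and ammonia genes were lower for 7 of 11 in either genotype, with medians of -0.12 and -0.11. *G6pc*, whose product releases free glucose, went the other way at 491, 470, 633 and 876 CPM. Amino acid metabolism had 10 and 8 of 16 genes higher, with medians of 0.058 and 0.0088 that both turned negative when centred. *Hpd*, an enzyme of tyrosine breakdown that later segments hold, was at 4.11, 1.93, 19.6 and 20.002 CPM.

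Cholesterol synthesis was lower in aged cells for 15 of 18 genes in Tfebfl/fl and 17 of 18 in Tfebfl/fl KAP mice, with medians of -0.28 and -0.45 beside 0.12 and 0.11 for all genes, and the sign held in all 11 alternative settings. *Fdps*, which makes farnesyl diphosphate, had 35.5, 38.3, 22.4 and 23.2 CPM. *Sqle*, squalene epoxidase, had 30.4, 26.3, 21.9 and 14.4 CPM, and *Insig1*, a sterol sensor, 52.9, 44.4, 37.8 and 23.7. In the aged library of the KAP mice *Sqle* and *Insig1* were lowest. There 12 of the 18 genes were lower than in aged Tfebfl/fl mice, as were 4267 of all 7339 genes. Their median was -0.29 beside -0.042 for all genes.

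Lysosomal genes, the targets TFEB is best known for, were split. In Tfebfl/fl mice 41 of 64 were higher in aged cells, with a median of 0.13 beside 0.12 for all genes, and in Tfebfl/fl KAP mice 28 of 64, with a median of -0.021 that changed sign in 3 of 11 alternatives. Between genotypes the medians were 0.022 in young and -0.082 in aged mice beside -0.045 and -0.042 for all genes. Past 1.5-fold were 0 genes in young mice and 1 lower in aged mice, where 1.43 and 2.06% of all genes were lower. Each of these medians changed sign in 2 of 11 alternatives, the young median without mitochondrial UMIs in the total and with at most 20% of them per cell, and the aged median with no limit on *Slc5a2*, where it was 0.045, and with a mean of at least 25 CPM. *Psap*, the precursor of sphingolipid activators, had 483, 566, 830 and 841 CPM. Autophagy genes were higher for 23 and 21 of 27, with medians of 0.26 and 0.15 beside 0.12 and 0.11 for all genes. *Gabarapl1*, which joins the autophagosome membrane, had 164, 162, 342 and 343 CPM, and *Wipi1*, which acts at its formation, 12.2, 9.23, 21.3 and 17.3.

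Antioxidant genes had 12 of 21 higher in either genotype, with medians of 0.066 and 0.13, of which the first turned negative when centred. *Gsta4*, a glutathione transferase, had 43.1, 32.1, 16.3 and 10.7 CPM, and *Hmox1*, heme oxygenase, 40.5, 74.6, 19.1 and 24.8. Of 16 injury genes 4 were measured, of which 1 was higher in either genotype. The kidney injury gene *Havcr1* was at 0, 0.0365, 0 and 0.219 CPM, where a count of 0 allows up to 0.122 and 0.359 CPM in the young and aged Tfebfl/fl libraries. *Krt8*, a keratin, had 178, 142, 118 and 120 CPM. Of the metallothionein list, *Slc30a1*, which exports zinc, was level at 24.8, 25.6, 25.4 and 25.03 CPM while *Mt1* was not.

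Clock genes stood out among the transcription factors. The circadian clock is a feedback loop in which BMAL1 (*Arntl*) and CLOCK switch on *Per*, *Cry* and *Nr1d* genes through E-box letters, whose products then switch them off, and the factors of *Dbp*, *Tef* and *Hlf* act through D-box letters. Of 12 measured genes 10 were higher in aged Tfebfl/fl and 12 in aged Tfebfl/fl KAP mice, with 8 past 1.5-fold in either and medians of 1.17 and 0.96. Of all genes 10.7 and 10.6% were past 1.5-fold higher, and their medians were 0.12 and 0.11. *Dbp* had 7.01, 8.10, 36.9 and 15.2 CPM, and *Per3* 5.17, 5.62, 25.5 and 13.3. *Nr1d2* had 25.7, 23.6, 71.7 and 47.5 CPM. These were highest in aged Tfebfl/fl mice, lower in aged Tfebfl/fl KAP mice and lowest in both young libraries. *Tef* had 34.5, 32.8, 89.8 and 76.5 CPM, and *Bhlhe40*, a repressor of the loop, 26.0, 26.6, 82.9 and 58.0. *Arntl*, whose phase is opposite to *Nr1d1*, was under the limit of 10 CPM, at 11.8, 10.9, 4.67 and 8.85. The same genes had medians of 0.71 and 0.30 in the S2 range. The time of day at which tissue was taken is not given in the labels, and its part in these values was not tested.

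**Figure D4:**
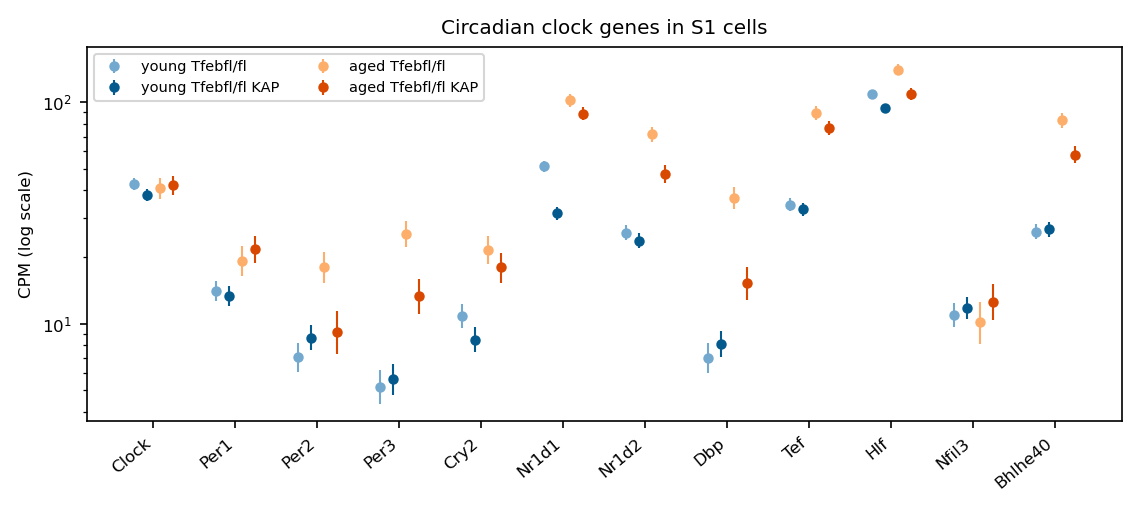
CPM (log axis) of the 12 measured clock genes in S1 cells, with 1 point per library and bars for the exact 95% interval of the count, which covers counting error only. Nr1d1, Nr1d2, Dbp, Tef, Per3, Cry2 and Bhlhe40 lie higher in both aged libraries than in both young, while Clock and Nfil3 are level. Both aged libraries lay above both young for 10 of the 12 genes and for 44% of all genes.

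Among the 12, 10 had a promoter in the RefSeq table (GRCm38.p6). Those with an E-box or D-box are shown with 30 bases on either side, in the direction of the gene, since they hold the letters through which the loop is known to act, in capitals. The searches used the E-box CACGTG and the D-box TTANGTAA on both strands.
Per1: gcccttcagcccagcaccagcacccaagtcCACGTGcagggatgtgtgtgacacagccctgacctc
Tef: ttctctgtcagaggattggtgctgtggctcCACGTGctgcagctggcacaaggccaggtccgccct
Per3: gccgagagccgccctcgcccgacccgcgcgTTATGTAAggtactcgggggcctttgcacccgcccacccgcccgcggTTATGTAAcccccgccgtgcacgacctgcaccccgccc
The *Per1* stretch lies at chr11:69098753-69098818 on the plus strand, that of *Tef* at chr15:81802516-81802581 on the plus strand and that of *Per3* at chr4:151044786-151044900 on the minus strand. The E-box of *Per1* begins at -166, that of *Tef* at -127, and the D-boxes of *Per3* at -205 and -158 from the start. Among all promoters of this length 7.24% held the E-box and 2.34% the D-box, and among those of measured genes 11.7 and 1.47%. *Per1* itself was higher in aged cells by log2 ratios of 0.46 and 0.70, from 14.1, 13.4, 19.3 and 21.6 CPM.

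Antigen presentation differed by age and by genotype in old mice. All 10 measured genes of the list were higher in aged than in young Tfebfl/fl mice, 9 of them past 1.5-fold (10.7% of all genes) with a median of 1.12, and 8 of 10 in Tfebfl/fl KAP mice, with a median of 0.64. The medians of all genes were 0.12 and 0.11. All 10 were lower in aged Tfebfl/fl KAP than in aged Tfebfl/fl mice, as were 4267 of all 7339 genes. Past 1.5-fold lower were 8 of them (2.06% of all genes), with a median of -0.91 beside -0.042 for all genes. With no limit on *Slc5a2* this median was -0.54, and in the S2 range it was -0.27, with 3 of the 10 higher. With age the list's medians in the S2 range were 1.07 and 0.67, near those of S1 cells. *H2-K1*, a class I gene, had 96.0, 96.5, 236 and 158 CPM, and *B2m*, its light chain, 116, 98.3, 222 and 146. *Cd74*, the invariant chain of class II, had 15.9, 20.7, 97.1 and 43.6 CPM, but 28.0% of its UMIs in aged Tfebfl/fl mice came from 1 barcode, and 39.8% of those of the class II gene *H2-Aa*. The 4 myeloid markers summed to 0.774, 1.496, 24.7 and 4.48 CPM, and were led by *C1qa* at 8.86 CPM in aged Tfebfl/fl mice, where 75.7% of its UMIs came from 1 barcode. Myeloid markers thus moved in the same order as the class II genes, and their part in the result was not tested.

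Immediate early and heat shock genes, which cells switch on within minutes of a stimulus, split the aged libraries. Of 19 genes 16 were higher in aged than in young Tfebfl/fl mice, with a median of 0.40, while in Tfebfl/fl KAP mice 8 were higher and 11 lower, with a median of -0.35. The medians were 0.098 and 0.073 in the S2 range. *Egr1* had 321, 243, 250 and 124 CPM, and *Klf6* 221, 225, 386 and 215. *Fosb*, in contrast, had 341, 254, 684 and 494 CPM, higher in both aged libraries, and *Hspa1b*, a heat shock protein, 8.68, 20.6, 19.5 and 6.34. In aged mice 18 of the 19 genes were lower in Tfebfl/fl KAP than in Tfebfl/fl, as were 4267 of all 7339 genes. The list had a median of -0.52 beside -0.042 for all genes. With no limit on *Slc5a2* this median was -0.18 and that of age in Tfebfl/fl KAP mice -0.020, and in the S2 range the median between genotypes of aged mice was -0.093.

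Genes of male kidney and of later segments were lower in S1 cells than in the S2 range, and many were higher in aged than in young S1 cells. The androgen list had 10 and 9 of 11 genes higher in aged cells, with medians of 0.79 and 0.98 beside 0.12 and 0.11 for all genes, and of its genes *Cyp4b1* had 278, 468, 799 and 1291 CPM and *Cyp2e1* 88.3, 116, 281 and 450 CPM. *Cyp4a12a*, a fatty acid hydroxylase, had 3.30, 19.3, 28.2 and 66.9 CPM. In the S2 range *Cyp4b1* stood at 1574, 1982, 1737 and 1933 CPM and *Cyp2e1* at 663, 694, 853 and 979, and the list's medians there were 0.14 and -0.036. For *Cyp4b1* the 4 libraries were thus closer to each other there than in S1 cells. With no limit on *Slc5a2* the log2 ratios of *Cyp4b1* were 0.65 and 0.60, and those of *Cyp2e1* 0.87 and 1.10. *Cyp2d12* kept 4.26 and 3.90. More widely, the 139 genes that were at least 2-fold lower in S1 cells than in the S2 range had medians of 0.53 and 0.51 with age, and 64 and 63 of them were past 1.5-fold higher (10.7 and 10.6% of all genes), while the 218 genes that were at least 2-fold higher in S1 cells had medians of -0.00042 and -0.063. Of these 218, 38 and 39 were past 1.5-fold higher and 36 and 38 past 1.5-fold lower, so that they differed both ways. How far cells of the next segment passed the limit was not tested.

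**Figure D5:**
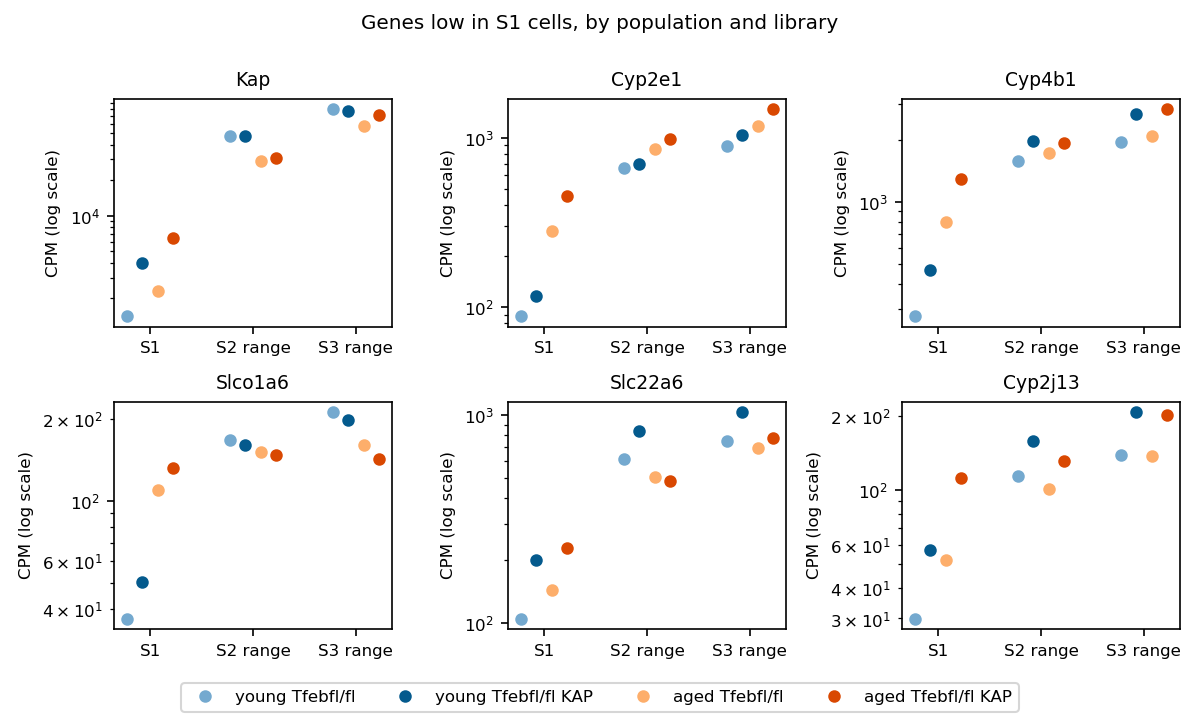
CPM (log axis) of 6 genes that are low in S1 cells, in the S1 cells and the S2 and S3 ranges, with 1 point per library. Within S1 cells the aged libraries lie above the young of the same genotype for all 6, and in the S2 range Kap, Slco1a6, Slc22a6 and Cyp2j13 are lower in aged mice instead.

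Fewer genes differed by genotype. In young mice 74 genes (1.01%) were at least 1.5-fold higher and 105 (1.43%) lower in Tfebfl/fl KAP than in Tfebfl/fl S1 cells, and in aged mice 99 (1.35%) were higher and 151 (2.06%) lower. These comparisons share no library. Past 1.5-fold at both ages were 21 genes higher (0.286%), which is 28.4 and 21.2% of each set, and 16 lower (0.218%), which is 15.2 and 10.6%. Both KAP libraries lay above both Tfebfl/fl libraries for 631 genes (8.6%) and below for 1127 (15.4%). In young mice the share of higher genes among those past 1.5-fold went from 41.3 to 52.1% when centred and to 26.5% without mitochondrial UMIs. In aged mice it was 39.6%, and 66.7% with no limit on *Slc5a2*, so that the balance turned over.

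*Kap*, whose promoter drives the Cre, was higher in the KAP library at both ages, at 1414, 3977, 2323 and 6492 CPM, with log2 ratios of 1.49 in young and 1.48 in aged mice. After thinning *Kap* was seen in 13.7, 18.2, 52.6 and 55.4% of S1 cells, against 3.48, 0, 0.117 and 0.0923% of thick limb cells, and without thinning in 20, 20.1, 56.8 and 57.8% of S1 cells. The share of cells with *Kap* thus differed more by age than by genotype. The top 1% of cells held 55.8, 33.0, 32.1 and 20.8% of its UMIs. In the S2 range *Kap* stood at 46827, 47187, 29137 and 30674 CPM, and with no limit on *Slc5a2* the log2 ratios between genotypes were -0.16 and -0.066. Among genes with a mean of at least 50 CPM, the largest ratio in aged mice was that of *Mt1*, 1.85 (95% interval 1.59 to 2.11). *Ttr* had 1.29, while in young mice the ratios of *Mt1* and *Ttr* were 0.12 and 0.012. *Cyp2j13*, another P450, had 29.9, 57.1, 51.8 and 112 CPM, and *Slc22a6* 105, 201, 144 and 230. Both genes are also more abundant in the S2 range. With no limit on *Slc5a2* their log2 ratios in young mice went from 0.93 and 0.94 to 0.44 and 0.36, under 1.5-fold.

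For several of the other named genes the genotypes differed in opposite directions at the 2 ages. *Hspa5*, the chaperone BiP of the endoplasmic reticulum, had 392, 732, 509 and 394 CPM, so that the KAP library was higher in young mice, by a log2 ratio of 0.90, and lower in aged mice, by -0.37. *Hsph1*, a cytosolic chaperone, had 52.9, 98.8, 85.0 and 63.9 CPM. Both followed the same order of libraries. *Sgk1*, a kinase induced by corticosteroids, had 90.7, 58.2, 86.2 and 225 CPM, *Polr3e*, a subunit of RNA polymerase III, 152, 122, 133 and 343, and *Gadd45g*, a stress response gene, 171, 93.5, 159 and 357. All 3 were highest in aged Tfebfl/fl KAP mice. In young mice the KAP library was lower for each, with log2 ratios of -0.64 for *Sgk1*, -0.32 for *Polr3e* and -0.87 for *Gadd45g*, and in aged mice it was higher, with 1.38, 1.37 and 1.16. *Wnk1*, a kinase of salt transport, was lowest there at 87.1, 61.8, 91.7 and 47.5 CPM, and with no limit on *Slc5a2* its log2 ratio in aged mice turned from -0.95 to 0.35. *Ptgds*, *Gc*, *Spp1* and *Egr1*, with log2 ratios from -1.33 to -0.98, were also among the lowest there. With no limit on *Slc5a2* these ratios were -0.64 for *Ptgds*, -0.38 for *Gc*, -0.41 for *Spp1* and -0.38 for *Egr1*, and the last 3 were under 1.5-fold.

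*Gm42418* and *AY036118*, which overlap ribosomal RNA and whose counts are therefore uncertain, were lower in both KAP libraries. *Gm42418* had 3470, 1887, 6319 and 2840 CPM, and *AY036118* had 202, 79.5, 194 and 126 CPM. The share of entries kept at an explicit 0, a trace of the authors' correction for background RNA, was 2.90, 12.5, 9.41 and 12.9% in the whole libraries. It was higher in the KAP library at each age, and its part in these values was not tested. *Nudt4* had 115, 60.1, 88.4 and 60.2 CPM, and *S100g*, a calcium binding protein of later segments, 189, 3.47, 31.5 and 22.8, of which all came from 1 barcode in either KAP library.

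Between genotypes the carrier lists and the energy lists each held medians of both signs. The citrate cycle had -0.021 in young and -0.0076 in aged mice, and the mitochondrial OXPHOS genes -0.047 and 0.029. Each of these medians changed sign in at least 1 alternative. Sugar and lactate carriers had medians of -0.24 in young and -0.076 in aged mice, of which the second changed sign in 6 of 11 alternatives. In young mice 5 of these 7 carriers were lower, as were 4319 of all 7339 genes. Amino acid carriers had medians of -0.12 at both ages. The organic ion carriers had medians of 0.16 and 0.14, fatty acid degradation 0.16 and 0.18 and nuclear OXPHOS genes 0.14 and 0.038, where the medians of all genes were -0.045 and -0.042. With no limit on *Slc5a2* the organic ion carriers in aged mice turned to -0.047 and fatty acid degradation to -0.0027, and with at most 20% mitochondrial UMIs the nuclear OXPHOS genes in aged mice turned to -0.034. The androgen list had medians of 0.41 and 0.68, which were 0.053 and 0.13 with no limit on *Slc5a2*. The list of clock genes had medians of -0.072 in young and -0.32 in aged mice.

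Markers of other cells were found in S1 cells at the following levels. Those of the thick limb and S3 cells include the genes that the selection limited, which fixed low levels in advance. The 4 thick limb markers summed to 90.8, 33.9, 66.2 and 44.2 CPM, led by *Umod*, against 5789, 5005, 3513 and 4315 in all filtered cells. Markers of S3 cells summed to 94.2, 127, 139 and 180 CPM, led by *Slc22a30*, a gene of the selection. *Slc7a13*, likewise limited by the selection, was seen after thinning in 1.54, 1.98, 7.64 and 6.25% of S1 cells, against 0.891, 0.231, 1.98 and 0% of thick limb cells, and without thinning in 3.03, 4.31, 20.1 and 14.4% of S1 cells. Distal convoluted markers summed to 57.5, 27.5, 47.4 and 23.8 CPM, connecting tubule and principal cell markers to 122, 84.8, 61.0 and 94.98, intercalated markers to 23.8, 5.11, 2.99 and 1.64 and podocyte markers to 6.92, 38.1, 12.8 and 8.96. Both KAP libraries had less of the thick limb and distal convoluted markers than the Tfebfl/fl library of their age. Endothelial markers summed to 21.7, 35.0, 32.5 and 45.5 CPM, stromal markers to 40.1, 42.4, 8.86 and 0.656 and lymphoid markers to 1.34, 0.803, 2.03 and 0.437. Erythroid markers summed to 14.7, 135, 0 and 142 CPM, with all 4 genes at 0 in aged Tfebfl/fl mice, and *Hbb-bs*, the most abundant, had a UMI in only 1, 4, 0 and 4 cells. The part of these cells in the results above was not tested.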

How the data were processed

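Renal cortex of male mice was profiled in 4 single-cell 3′ libraries, 1 per condition. Per the labels and the study's methods, Cell Ranger (6.0.0, mm10) made the counts, background RNA was subtracted and Seurat (4.4.0) handled the cells; the authors deposited corrected UMI counts per gene and barcode, in which explicit zeros remain. Cells were selected by the limits given above. Doublets were kept, and the highest Scrublet scores of scanpy (1.11.5) were left out as an alternative, at a rate of 0.8% per 1000 barcodes. UMIs of S1 cells were summed per library and scaled to CPM with Python 3.11.15, numpy 2.4.6, pandas 2.3.3 and scipy 1.17.1, and plotted with matplotlib 3.10.9. Without replicate libraries no test was made; ratios carry the exact 95% interval of 2 counts, genes past 1.5-fold are counted, and these steps were tested on simulated data. No library was left out. The cells and gene lists were chosen with earlier results of these data known. Named genes follow a rule: 12 each way for age, 6 each way for genotype, 12 for S1 against the S2 range, and up to 6 per list; other genes were chosen after their values were seen. Alternatives numbered 10 fixed and 1 added.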

Additional observations from a re-analysis of the deposited data

Results flagged for a closer look

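Among the genes named by the rule for age and genotype, 2 moved past 1.5-fold in opposite directions with age in the 2 genotypes. With 1 library a condition this difference was not tested. *Hspa1b* of the heat shock list, whose values are given above, was also higher with age in Tfebfl/fl and lower in Tfebfl/fl KAP mice. *Hsph1* had log2 ratios of aged to young of 0.68 in Tfebfl/fl and -0.63 in Tfebfl/fl KAP mice. *S100g* had log2 ratios of -2.58 and 2.72, but all of its UMIs in either KAP library came from a single barcode, and 82.5% in aged Tfebfl/fl mice.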

How the results depend on the processing

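No paired analysis was possible because each condition has 1 library. Counts of genes past 1.5-fold are given as aged against young Tfebfl/fl, aged against young Tfebfl/fl KAP, and genotype in young and in aged mice. Of 88 recomputed counts 45 stayed within 1.5 times the value above. With at most 20% mitochondrial UMIs the lower genes with age were 544 and 395, and with genotype there were 130 higher and 335 lower in young and 281 and 256 in aged mice. With *Slc5a2* of at least 8 CP10k, 1354 and 1433 genes were higher with age, and 180 higher and 294 lower with genotype in aged mice. Thinned to 5000 UMIs, 1230 and 1334 were higher with age, 230 lower with genotype in young mice, and 267 higher and 359 lower in aged mice. As the mean of CPM over cells, 1182 and 1244 were higher with age. Without mitochondrial UMIs, 362 were lower with age in Tfebfl/fl mice and 200 lower with genotype in young mice. Centred on the median, age gave 462 higher and 396 lower in Tfebfl/fl and 486 and 313 in Tfebfl/fl KAP mice. Requiring a mean of 25 CPM gave 393 higher and 113 lower, 372 and 104, 40 and 38, and 54 and 57, since fewer genes were counted; no minimum gave 3283 and 1718, 3485 and 1634, 1430 and 2299, and 1408 and 1883, since more were. With no limit on *Slc5a2*, chosen after seeing the data, 312 and 488 were higher with age, 39 higher with genotype in young mice, and 64 lower beside 128 higher in aged mice. The direction turned for *Ren1* with genotype in aged mice when thinned (log2 ratio -0.060) and with no limit on *Slc5a2* (-0.97), and under the latter for *Kap* (-0.16 in young and -0.066 in aged mice) and *Wnk1* in aged mice (0.35). The cause of the other changes was not tested. Depth limits the aged libraries most, where 3 counts are worth 0.359 and 0.328 CPM, against 0.122 and 0.109 in the young, and genes under a mean of 10 CPM, *Tfeb* among them, were not compared.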

Other observations

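Markers of dividing cells were more abundant in young S1 cells than in the cortex as a whole. *Mki67*, *Top2a* and *Birc5* summed to 92.5, 46.3, 0.718 and 7.10 CPM in S1 cells and to 33.4, 19.1, 5.57 and 6.21 CPM over all filtered cells, in the order of libraries used above. *Mki67* had a UMI in 116, 45, 1 and 6 S1 cells, and the top 1% of cells held 51.6, 86.7, 100 and 100% of its UMIs. The aged Tfebfl/fl library had the lowest sum. These markers were chosen with the other lists, and their values belong to no comparison above.

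*Vcam1*, an adhesion molecule of the injury list, was under the limit of 10 CPM but higher in both aged libraries, at 1.95, 1.28, 20.7 and 12.6 CPM. *Vcam1* had a UMI in 7, 19, 35 and 19 S1 cells, and the top cell held 66.7, 14.3, 18.5 and 37.4% of its UMIs.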
